A study of Mus musculus with 18 samples.

Results

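The effect of ACVR2B/Fc on quadriceps gene expression was measured over both genotypes together. The comparison set 6 arrays of ACVR2B/Fc-injected mice (3 Dysf-/- and 3 wt) against 6 arrays of mice without injection (3 Dysf-/- and 3 wt), with genotype as a covariate, so that it used 12 of the 18 arrays of the series and tested 20259 genes. Injected mice, Dysf-/- or wt, received 4 weekly intraperitoneal injections of ACVR2B/Fc at 10 mg/kg (200 µg per injection) from 6 weeks of age. The other mice had the same genotypes and a treatment labelled none, and the methods for the arrays do not state whether they received PBS. All mice were males on a C57BL/6 background, and quadriceps was taken at 10 weeks of age. Dysf-/- mice lack dysferlin, a membrane protein of muscle fibres, and wt mice are wild type. The remaining 6 arrays were from F66 mice, 3 with and 3 without dysferlin, which carry an Fst transgene on the Y chromosome driven by a myosin light chain promoter. They did not enter the comparison. The labels describe the 3 replicates of each group as biologically independent, and no source states that RNA of several mice was pooled. Values are on the log2 scale of the array, so a difference of 1 is a doubling of signal.

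Myostatin (Mstn), GDF11 and the activins are secreted ligands of the TGF-beta family that bind activin type II receptors on muscle cells. Binding leads to the phosphorylation of SMAD2 and SMAD3. In muscle this signal limits fibre growth. ACVR2B/Fc joins the extracellular ligand-binding domain of the type IIB receptor to a mouse IgG2a Fc domain and acts as a soluble trap for these ligands. Follistatin, the product of the F66 transgene, binds several of the same ligands.

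The 12 arrays resembled each other closely, with correlations of 0.967 to 0.975 within groups over all rows and 0.958 at the lowest. The Dysf row lay between 6.76 and 7.10 in the 6 Dysf-/- arrays and between 8.48 and 8.70 in the 6 wt arrays, so every genotype label fitted its array. The mean of 11 skeletal muscle markers, among them Acta1, Ckm and Ttn, lay between 12.28 and 12.36 in all 12 arrays, and none of the 11 had an unadjusted p under 0.05. The median of an array over all rows lay between 5.38 and 5.45 in injected arrays and between 5.36 and 5.45 in arrays without injection. It was highest, at 5.44 to 5.45, in replicate 2 of injected Dysf-/-, injected wt and wt mice.

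Few genes passed the adjusted threshold, and most of these differed by less than a doubling. At an adjusted p under 0.05 (limma, Benjamini-Hochberg over all genes), 23 genes were called, 0.114% of those tested. Of these, 17 were higher in injected mice (0.0839%) and 6 were lower (0.0296%). The median size of their log2 differences was 0.41, and only Vsig4 passed a fold change of 2. Genes whose 6 injected arrays all lay above the 6 others made up 0.449% of those tested, and 0.336% lay wholly below. Among the 23 called genes, 15 had groups that did not overlap. At an unadjusted p under 0.05, 1760 genes were higher (8.69%) and 1202 lower (5.93%), and the median log2 difference of all genes was 0.02.

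The number of calls depended on single arrays. Without wt replicate 1 or 3 there were 0 calls (2291 and 2228 genes at an unadjusted p under 0.05), and without wt replicate 2 there were 46. Leaving out ACVR2B/Fc-injected wt replicate 1, 2 or 3 left 5, 1 and 7 calls, and leaving out Dysf-/- replicate 1 or 3 left 5 and 1. Leaving out ACVR2B/Fc-injected Dysf-/- replicate 2 or 3 left 3 and 2. The split of 17 higher and 6 lower became 9 and 5 after a further quantile normalization, and 1 and 3 after centring each array on its median. Each gene was read from its brightest row, and with the mean of its rows 4 of the 23 were no longer called. These were Cldn1 (-0.29, adjusted p = 0.251, limma), Msi2 (0.22, adjusted p = 0.102), and Myh11 and Top2a, whose differences stayed at -0.29 and 0.29 with an adjusted p of 0.0507. In each of these fits all 23 genes kept their direction and an unadjusted p under 0.05.

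**Figure D1:**
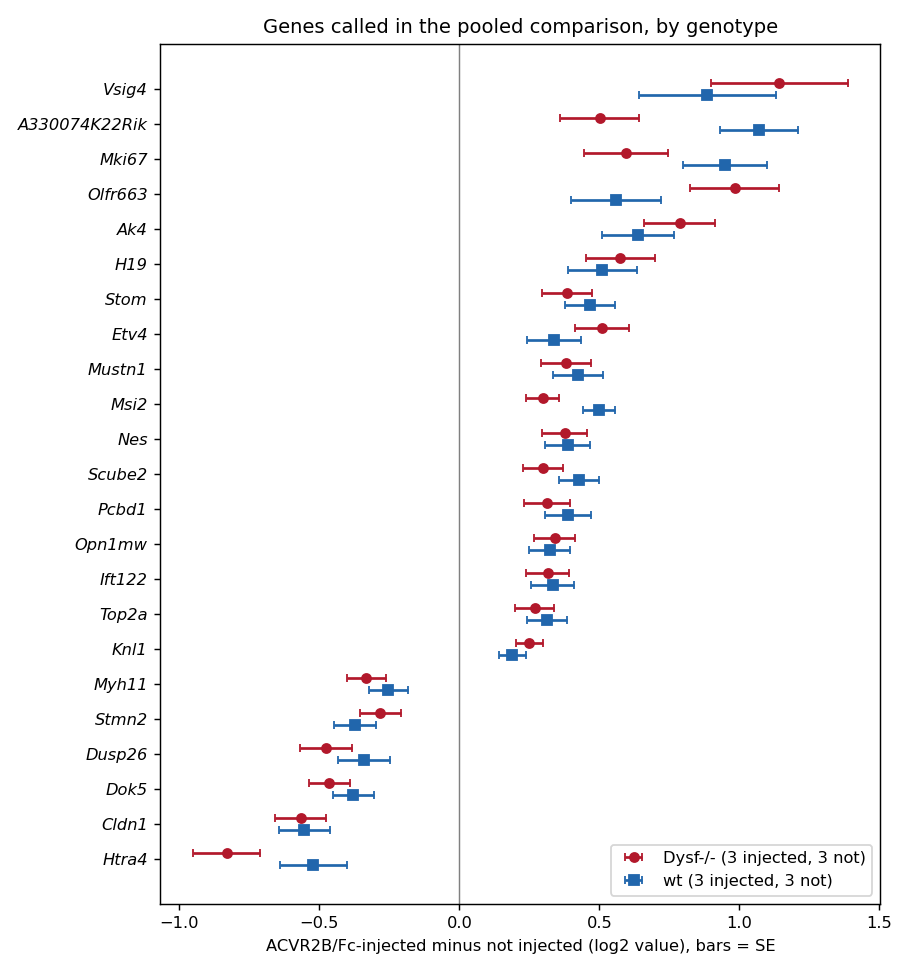
Log2 differences between ACVR2B/Fc-injected mice and mice without injection for the 23 called genes, drawn for Dysf-/- (circles) and wt (squares) with standard errors from the fit of 4 group means. The genes were chosen on the 2 genotypes together, and every gene lies on the same side of 0 in both.

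Mki67, Top2a and Knl1, 3 genes of cell division, rose in injected muscle. Mki67, the proliferation antigen Ki-67, was 6.47, 6.55 and 6.65 in injected Dysf-/- arrays, against 6.15, 5.99 and 5.75 in Dysf-/- arrays. In wt mice it was 6.08, 6.48 and 6.52 with injection, against 5.70, 5.21 and 5.32 without. Within each genotype all injected arrays were above the others, and over both genotypes 1 injected wt array fell below the highest Dysf-/- array. The pooled log2 difference was 0.77 ± 0.11 (SE), a fold change of 1.71 (limma adjusted p = 0.0397).

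Top2a, the topoisomerase that untangles chromosomes before they separate, was 5.16, 5.17 and 5.19 in injected Dysf-/- arrays and 4.98, 4.83 and 4.90 in Dysf-/- arrays. It was 4.84, 5.04 and 5.04 in injected wt arrays, against 4.73, 4.60 and 4.66 in wt arrays, and rose by 0.29 ± 0.05 (adjusted p = 0.0486, limma). Knl1, a scaffold of the kinetochore, ranged between 4.14 and 4.35 (median 4.27) in the 6 injected arrays, and between 3.98 and 4.10 (median 4.05) in the 6 others, with no overlap. Its rise of 0.22 ± 0.03 (limma adjusted p = 0.0435) was the smallest among the called genes. Both Top2a and Knl1 lay below 5.37, the median of all rows of the table, where part of the signal is background and log2 differences are compressed.

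The promoters of these 3 called genes are shown because genes of mitosis often carry a CHR element (TTTGAA) and CCAAT boxes close to their start. Each run is 250 bases before to 50 after the annotated start on the gene's own strand, from RefSeq on GRCm38.p6. Capitals mark TTTGAA or its reverse complement TTCAAA and CCAAT or its reverse complement ATTGG, and no 2 matches overlap.
Mki67 (chr7:135716330-135716629, minus strand): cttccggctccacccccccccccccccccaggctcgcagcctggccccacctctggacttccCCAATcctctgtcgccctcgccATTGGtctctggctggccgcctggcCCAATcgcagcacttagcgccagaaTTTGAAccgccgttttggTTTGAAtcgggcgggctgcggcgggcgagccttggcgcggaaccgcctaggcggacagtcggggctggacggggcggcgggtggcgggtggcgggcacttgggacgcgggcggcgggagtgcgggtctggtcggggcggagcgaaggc
Top2a (chr11:99024140-99024439, minus strand): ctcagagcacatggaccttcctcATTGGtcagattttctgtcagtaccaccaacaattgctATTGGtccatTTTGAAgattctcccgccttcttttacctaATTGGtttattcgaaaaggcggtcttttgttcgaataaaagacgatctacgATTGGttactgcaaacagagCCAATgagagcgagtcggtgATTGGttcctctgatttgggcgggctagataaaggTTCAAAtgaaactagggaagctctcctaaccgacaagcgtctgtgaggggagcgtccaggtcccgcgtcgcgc
Knl1 (chr2:119046869-119047168, plus strand): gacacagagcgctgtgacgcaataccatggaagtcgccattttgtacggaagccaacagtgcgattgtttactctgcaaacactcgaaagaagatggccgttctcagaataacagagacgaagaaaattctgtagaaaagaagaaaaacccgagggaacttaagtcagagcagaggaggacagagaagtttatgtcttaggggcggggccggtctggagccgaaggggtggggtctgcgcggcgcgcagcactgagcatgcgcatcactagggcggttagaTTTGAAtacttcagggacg
Mki67 held 2 TTTGAA matches, which begin 116 and 98 bases before the start, with 3 CCAAT matches upstream of them. Top2a held 2 TTTGAA matches, 179 and 23 bases before the start, and 6 CCAAT matches. Knl1 held 1 TTTGAA match after its start and no CCAAT. Over 32851 promoter windows of the same 300 bases, 17.9% held TTTGAA and 37.4% held CCAAT on either strand. By gene, 20.2% and 41.1% of 27025 genes had at least 1 such window, against 10 and 17 of the 21 cell cycle genes described next for which a promoter was listed. A match describes the letters in the window and does not show a bound site.

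Among 25 measured genes of a cell cycle and mitosis list, all 25 had a positive pooled difference, with a median of 0.17 against 0.02 for all genes. Of the 25, 18 had an unadjusted p under 0.05, all of them higher, beside 8.69% of all genes. Mki67 and Top2a were called, beside 0.114% of all genes. Members that did not pass the adjusted threshold included Cdk1, the kinase that drives entry into mitosis, with a difference of 0.35, and Ccnd1, cyclin D1 of the G1 phase, with 0.33. Kif11, the motor that spreads the spindle, ranged between 5.07 and 5.38 (median 5.18) in injected arrays and between 4.80 and 5.14 (median 4.98) in the others, with a difference of 0.25 ± 0.04 (adjusted p = 0.0696, limma). The mitotic kinases Bub1, Aurkb and Aurka had differences of 0.21, 0.21 and 0.18. The mean level of the 25 genes lay between 5.91 and 6.07 in injected Dysf-/- arrays, against 5.79 to 5.82 in Dysf-/- arrays, and between 5.81 and 5.94 in injected wt arrays, against 5.65 to 5.73 in wt arrays.

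Dim genes leaned upward in general: of 5169 genes below the median of all rows, 9.6% were higher and 1.39% were lower with an unadjusted p below 0.05, against 8.38% and 7.49% of 15090 brighter genes. Of the 25 cell cycle genes, 6 were below that median and all 6 were among the 18, as were 12 of the 19 brighter ones. With the array median as a covariate, 11 of the 25 were higher at an unadjusted p under 0.05, beside 5.19% of all genes. Leaving out the 3 arrays with the highest medians gave 15, and leaving out any single array gave 15 to 18. These fits with the array median and without the 3 arrays were added after the data had been seen. Whether fibres, satellite cells or infiltrating cells carried the signal was not tested. In bulk tissue, more cells of a type and more RNA per cell cannot be told apart.

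**Figure D2:**
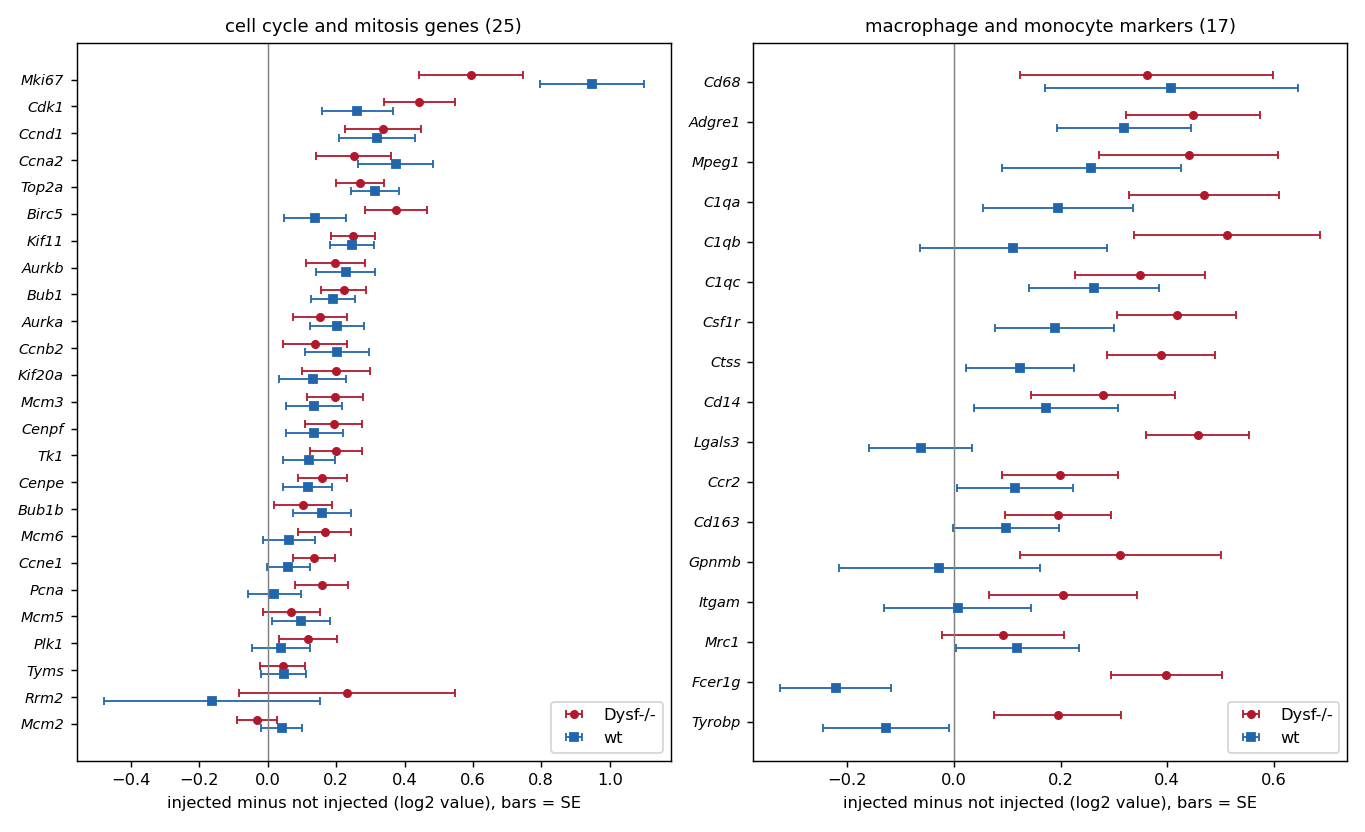
Log2 differences between ACVR2B/Fc-injected mice and mice without injection, with standard errors, for the 25 measured cell cycle genes (left) and the 17 measured macrophage and monocyte markers (right), in Dysf-/- (circles) and wt (squares). Mki67 stands apart on the left with 0.60 in Dysf-/- and 0.95 in wt. Most macrophage markers have larger differences in Dysf-/- than in wt, and the genotype difference passed for no gene.

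Vsig4, a complement receptor of resident tissue macrophages, had the largest difference of the called genes. It was 4.83, 5.97 and 5.83 in injected Dysf-/- arrays, against 4.40, 4.57 and 4.23 in Dysf-/- arrays. It was 5.08, 5.55 and 5.49 in injected wt arrays, against 4.52, 4.50 and 4.44 in wt arrays. All 6 injected arrays lay above all 6 others. The rise was 1.01 ± 0.17, a fold change of 2.02 (limma adjusted p = 0.0493), at a mean level below the median of all rows.

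The 17 measured macrophage and monocyte markers, a list that did not include Vsig4, all had positive pooled differences, with a median of 0.23. Of these, 9 were higher at an unadjusted p under 0.05, beside 8.69% of all genes, and 0 were called, beside 0.114%. Adgre1, a surface receptor of mature macrophages, had a difference of 0.38, the receptor Csf1r 0.30, and the complement subunits C1qa and C1qc 0.33 and 0.31. The mean level of the list lay between 7.02 and 7.43 in injected Dysf-/- arrays, against 6.78 to 7.08 in Dysf-/- arrays, which overlapped. It lay between 6.29 and 6.51 in injected wt arrays, against 6.24 to 6.33 in wt arrays, which overlapped as well. The median difference was 0.36 in Dysf-/- mice, where 9 of 17 were higher at an unadjusted p under 0.05 (9.1% of all genes). It was 0.12 in wt mice, where 1 of 17 was (3.45% of all genes). The difference between these counts was not tested. The genotype difference had an unadjusted p under 0.05 for 2 of the 17, beside 6.11% of all genes, and did not pass for any. Without the genotype term 2 of 17 were higher (7.81% of all genes), with the array median as covariate 4 (5.19%), and without the 3 arrays with the highest medians 5 (8.61%).

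H19, Mustn1, Nes, Ak4 and Stom were also called. H19, a noncoding RNA expressed from the maternal chromosome, was 10.46, 10.80 and 10.78 in injected Dysf-/- arrays, against 9.99, 10.36 and 9.97 in Dysf-/- arrays. It was 10.39, 10.42 and 10.67 in injected wt arrays, against 9.98, 9.95 and 10.01 in wt arrays. The groups did not overlap, and the rise was 0.54 ± 0.08, a fold change of 1.46 (limma adjusted p = 0.0435). H19 RNA is the precursor of miR-675, whose mature arms are shown with the seed, bases 2 to 8, in capitals, from RefSeq on GRCm38.p6. The arrays report the H19 row and not these short RNAs.
mmu-miR-675-5p (chr7:142577112-142577133, minus strand): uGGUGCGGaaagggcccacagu
mmu-miR-675-3p (chr7:142577078-142577099, minus strand): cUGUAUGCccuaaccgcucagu
Igf2, the growth factor gene that neighbours H19 and is expressed from the paternal chromosome, was 8.42, 8.57 and 8.83 in injected Dysf-/- arrays, against 7.94, 8.05 and 7.995 in Dysf-/- arrays. It was 7.83, 7.92 and 7.92 in injected wt arrays, against 7.56, 7.71 and 7.66 in wt arrays. Injected arrays were higher within each genotype, and the pooled difference of 0.43 ± 0.08 did not pass (limma adjusted p = 0.0926).

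Mustn1, a small nuclear protein of the musculoskeletal system, ranged between 10.53 and 11.10 (median 10.89) in injected arrays and between 10.15 and 10.67 (median 10.47) in the others, and rose by 0.40 ± 0.06 (adjusted p = 0.0435, limma). Nes, the intermediate filament nestin found at neuromuscular and myotendinous junctions and in regenerating fibres, ranged between 8.02 and 8.39 in injected arrays and between 7.75 and 8.04 in the others, and rose by 0.38 ± 0.05. Both genes overlapped over the 6 and 6, while within each genotype the injected arrays were all above the others. Ak4, an adenylate kinase of the mitochondrial matrix, lay between 8.37 and 8.94 (median 8.69) in injected arrays, against 7.68 to 8.23 (median 8.06) in the others. It rose by 0.71 ± 0.09, a fold change of 1.64, and shared the smallest adjusted p of the comparison, 0.0158 (limma). Stom, the membrane protein stomatin, lay between 9.48 and 9.89 in injected arrays and between 8.98 and 9.42 in the others, and rose by 0.43 ± 0.06.

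The remaining increases were in genes of mixed function. Etv4, an ETS transcription factor of the PEA3 group, rose by 0.42 ± 0.07. Msi2, an RNA-binding protein of the Musashi family, lay between 9.34 and 9.498 in injected arrays and between 8.88 and 9.11 in the others, and rose by 0.40 ± 0.05 (limma adjusted p = 0.0158). Scube2, which helps release Hedgehog ligands from cells, rose by 0.36 ± 0.05, and Ift122, a subunit of the ciliary transport complex, by 0.32 ± 0.05. Groups did not overlap for Etv4, Msi2, Scube2 and Ift122. Pcbd1, an enzyme of biopterin recycling and a partner of HNF1 factors, rose by 0.35 ± 0.06, with overlap between the genotypes. Olfr663, an olfactory receptor gene, had a mean level below the median of all rows, and Opn1mw, a cone opsin gene, lay just above it. Their rises were 0.77 ± 0.12 and 0.33 ± 0.05. A330074K22Rik, a gene known only by a clone name, had the second largest rise of the 17, 0.79 ± 0.13 (limma adjusted p = 0.0435). It lay between 8.26 and 8.97 in injected arrays and between 7.57 and 8.09 in the others, with no overlap, and differed by 0.50 in Dysf-/- mice and by 1.07 in wt mice.

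The 6 genes that fell were Htra4, Cldn1, Dok5, Dusp26, Stmn2 and Myh11. Htra4, a secreted serine protease, was 8.64, 8.77 and 8.59 in injected Dysf-/- arrays, against 9.56, 9.70 and 9.24 in Dysf-/- arrays. It was 9.05, 8.84 and 8.68 in injected wt arrays, against 9.45, 9.32 and 9.36 in wt arrays, with no overlap of the 6 and 6. Its log2 difference of -0.68 ± 0.09, a fold change of 0.626, was the largest decrease called (limma adjusted p = 0.0332). Cldn1, the tight junction protein claudin-1, was 6.78, 6.74 and 6.76 in injected Dysf-/- arrays, against 7.47, 7.28 and 7.23 in Dysf-/- arrays. It was 7.15, 7.26 and 7.02 in injected wt arrays, against 7.77, 7.53 and 7.79 in wt arrays. Each genotype separated by injection, and Cldn1 fell by 0.56 ± 0.06 (adjusted p = 0.0158, limma).

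Dok5, an adaptor of receptor tyrosine kinases, lay between 6.18 and 6.55 (median 6.37) in injected arrays, against 6.53 to 6.999 (median 6.80) in the others, and its difference was -0.42 ± 0.05. Dusp26, a dual-specificity phosphatase, lay between 7.66 and 8.11 in injected arrays and between 8.18 and 8.50 in the others, with a difference of -0.41 ± 0.07. Stmn2, a stathmin that destabilises microtubules in neurons, lay between 5.56 and 5.72 in injected arrays and between 5.80 and 6.12 in the others, with a difference of -0.33 ± 0.05. Only Dok5 of these 3 overlapped between the 6 and 6.

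Myh11, the myosin heavy chain of smooth muscle, was 7.33, 7.27 and 7.23 in injected Dysf-/- arrays, against 7.68, 7.49 and 7.66 in Dysf-/- arrays. It was 7.44, 7.47 and 7.32 in injected wt arrays, against 7.63, 7.63 and 7.73 in wt arrays. The 6 and 6 did not overlap, and Myh11 fell by 0.29 ± 0.05 (limma adjusted p = 0.0486). In the list of 10 smooth muscle and pericyte markers, 3 were lower at an unadjusted p under 0.05 (5.93% of all genes), 1 was higher (8.69%), and the median difference was -0.08. The other 2 that were lower are Rgs5 and Tagln. Rgs5, a regulator of G-protein signalling in pericytes, had a difference of -0.30 and no overlap (limma adjusted p = 0.0926). Tagln, an actin-binding protein of smooth muscle, had -0.25. The 1 that was higher is Cspg4, with 0.12. By sign, 6 of the 10 differences were negative and 4 were positive. The mean level of the list lay between 7.99 and 8.16 in injected Dysf-/- arrays, against 8.17 to 8.22 in Dysf-/- arrays, and between 8.11 and 8.18 in injected wt arrays, against 8.17 to 8.23 in wt arrays.

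Further genes with the smallest p among decreases did not pass the adjusted threshold. Adcy2, an adenylyl cyclase, lay between 8.03 and 8.12 in injected arrays and between 8.26 and 8.47 in the others, with a difference of -0.25 ± 0.04 (limma adjusted p = 0.0696). Sema3c, a secreted semaphorin, lay between 7.20 and 7.46 in injected arrays and between 7.51 and 7.78 in the others, with -0.36 ± 0.06. Dkk3 and Sfrp5, secreted proteins related to Wnt inhibitors, had differences of -0.44 and -0.28. Slc4a8, a bicarbonate transporter, had -0.38 in its brightest row and -0.087 in the mean of its rows. The LIM protein Fhl5 had -0.35, the transcription factor Tfcp2l1 -0.30 and the splicing factor Srsf10 -0.20. The adjusted p-values of these 8 genes, read from the brightest rows, lay between 0.0696 and 0.0964.

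**Figure D3:**
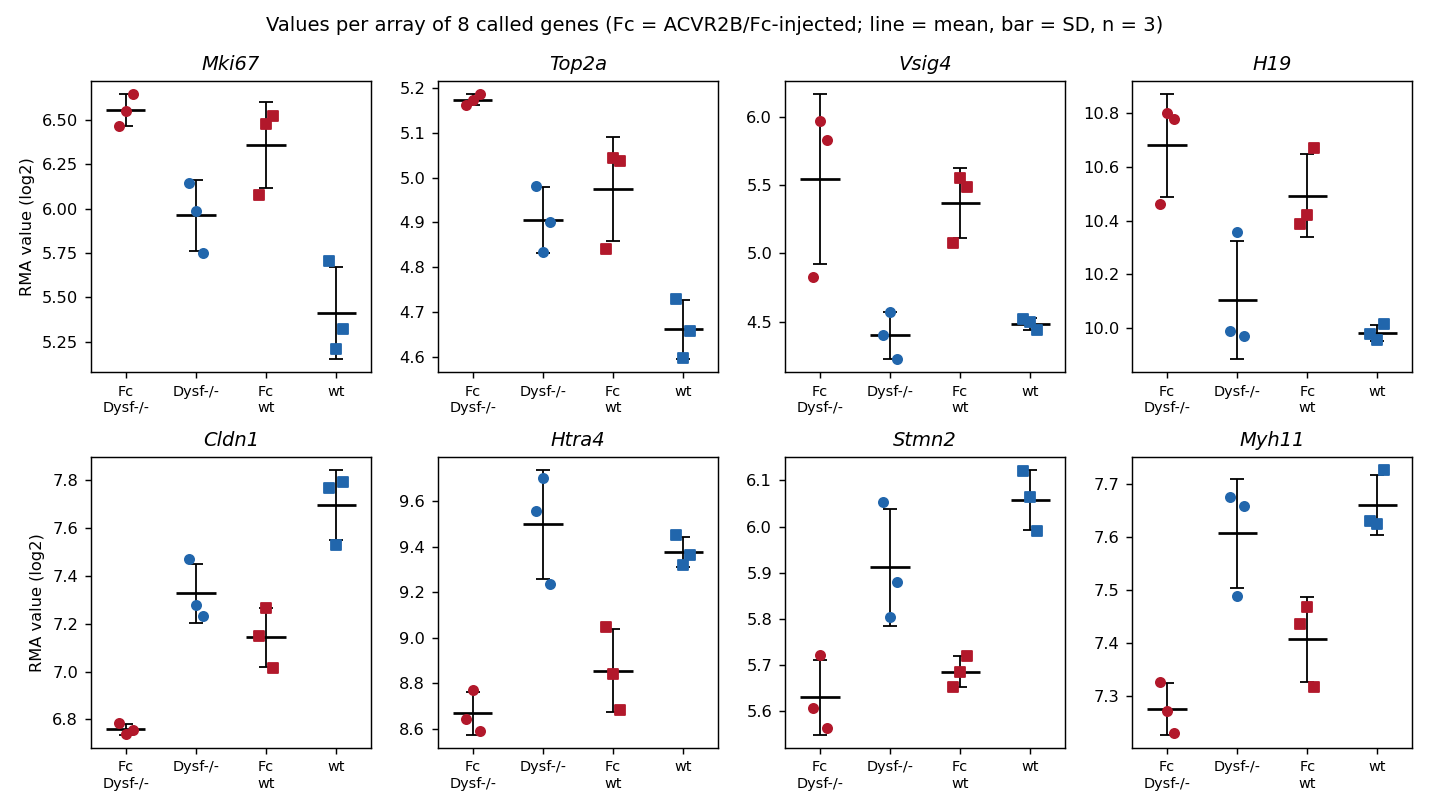
Log2 values of 8 called genes in each of the 12 arrays, with ACVR2B/Fc-injected arrays (red) left of the arrays without injection (blue) in each genotype. Lines are means of 3 arrays and bars are SDs. In each of the 8 genes the 3 injected arrays of a genotype lie wholly above or wholly below its 3 other arrays.

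The lists of TGF-beta family ligands, receptors and SMADs gave 0 calls, beside 0.114% of all genes. They hold activin, TGF-beta and BMP members and are not limited to the pathway that ACVR2B/Fc blocks. Mstn lay between 10.36 and 10.95 (median 10.69) in injected arrays, against 10.42 to 10.86 (median 10.66) in the others, with a difference of -0.0035 ± 0.09. In the paper's fold changes, Mstn was above wt in injected wt mice and lower in injected than in other Dysf-/- mice. The paper calls the latter change slight. The pooled value near 0 therefore averages estimates of opposite direction, and a change in either genotype was not shown. No gene was called within either genotype, and Mstn did not pass the test of a genotype difference. Gdf11, its closest relative, was 8.36, 8.41 and 8.54 in injected Dysf-/- arrays, against 7.97, 8.30 and 8.30 in Dysf-/- arrays. It was 8.60, 8.49 and 8.50 in injected wt arrays, against 8.28, 8.32 and 8.15 in wt arrays. The groups did not overlap, and the difference of 0.26 ± 0.06 did not pass (limma adjusted p = 0.164). Inha, the inhibin alpha subunit, had a difference of 0.31, Inhba, the activin A subunit, -0.04, and Tgfb1 0.23 with groups that did not overlap. Of 20 ligands, 3 were higher and 1 was lower with an unadjusted p below 0.05, beside 8.69% and 5.93% of all genes, and 6 were higher without wt replicate 2.

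The receptor genes Acvr2b and Acvr2a had differences of 0.03 ± 0.06 and -0.15 ± 0.08. Of 15 receptors, 2 had positive and 2 negative differences with an unadjusted p below 0.05, among them Tgfbr2 with 0.14 and Bmpr1a with -0.19. This count, and the pooled counts of SMADs and response genes below, stand beside 8.69% higher and 5.93% lower of all genes. Of 8 SMADs, 3 were higher and 0 lower: the inhibitory Smad6 and Smad7, with 0.26 and 0.19, and Smad9 of the BMP branch, with 0.15. By genotype, 1 SMAD was higher in Dysf-/- mice (9.1% of all genes) and 1 in wt mice (3.45%). Fst, the gene of the F66 transgene, had a pooled difference of -0.26, and Wfikkn2, an antagonist of myostatin and GDF11, had -0.14. Among 14 response genes of BMP and TGF-beta, 3 were higher and 2 lower, and Id2, an inhibitor of DNA binding induced by BMP, had a difference of 0.24. Medians of these lists were 0.05 for ligands, 0.02 for receptors, 0.04 for SMADs and 0.03 for response genes, against 0.02 for all genes.

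The lists of IGF and Akt genes, atrophy genes, and slow and fast fibre genes gave 0 calls, beside 0.114% of all genes. In the list of 18 IGF and Akt genes, 3 were higher and 2 were lower with an unadjusted p below 0.05, beside 8.69% and 5.93% of all genes, and the median was -0.03. Only 1 was higher without injected Dysf-/- replicate 3, with centred arrays or with the array median as covariate. Igfbp3, a binding protein of IGFs, had a pooled difference of -0.37. It lay between 6.98 and 7.21 in injected Dysf-/- arrays, against 7.10 to 7.31 in Dysf-/- arrays, with overlap, and between 6.88 and 7.10 in injected wt arrays, against 7.51 to 7.59 in wt arrays. The effects of -0.14 and -0.60 did not pass the test of their difference (limma adjusted p = 0.773). Foxo1, a transcription factor of the atrophy programme, had -0.44 with overlap, and -0.27 in the mean of its rows, and the 16 atrophy ligases and Foxo targets had a median of -0.05 with 0 higher and 2 lower. Among 10 slow fibre genes, 9 had negative differences with a median of -0.18, and 3 were lower at an unadjusted p under 0.05, beside 5.93% of all genes. These were Tnnc1, slow troponin C, with -0.52, Atp2a2, the slow calcium pump, with -0.33 (-0.074 in the mean of its rows), and Myl2, slow myosin light chain, with -0.26. The count was 5 without wt replicate 1, 6 without Dysf-/- replicate 2 and 5 with centred arrays, while 1 was lower with the array median as covariate and 1 without the 3 arrays with the highest medians. By genotype, 0 slow fibre genes were lower in Dysf-/- mice (6.13% of all genes) and 3 in wt mice (3.04%), and the difference between these counts was not tested. None of the 12 fast fibre genes had an unadjusted p under 0.05 in the pooled comparison.

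At the neuromuscular junction, Chrne, the epsilon subunit of the adult acetylcholine receptor, was 8.59, 8.37 and 8.42 in injected Dysf-/- arrays, against 8.07, 8.17 and 7.98 in Dysf-/- arrays. It was 8.46, 8.18 and 8.54 in injected wt arrays, against 7.95, 8.09 and 8.11 in wt arrays. The 6 injected arrays were all above the others, and the difference was 0.36 ± 0.07 (limma adjusted p = 0.0926). Ache, the acetylcholinesterase, had 0.28, and Rapsn, which clusters the receptors, had -0.16. In this list of 11 genes 4 were higher and 1 was lower with an unadjusted p below 0.05, beside 8.69% and 5.93% of all genes. With the array median as covariate 2 were higher. In Dysf-/- mice 6 were higher (9.1% of all genes) and 0 lower (6.13%), with a median of 0.15. In wt mice 2 were higher (3.45%) and 3 lower (3.04%), with a median of -0.02. The genotype difference had an unadjusted p under 0.05 for 3 of the 11 genes, beside 6.11% of all genes, and did not pass for any. In the pooled comparison, 1 of 14 satellite cell and myogenic genes was higher and 1 lower. Of 8 embryonic sarcomere genes, 2 were higher, also beside 8.69% of all genes. Mymk, the fusion protein myomaker, had a difference of 0.48 with overlapping groups, and Tnnt2, cardiac troponin T of immature fibres, had 0.43 in Dysf-/- mice and -0.02 in wt mice.

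Among other cell types, all 11 adipocyte markers had positive differences with a median of 0.20, and 5 were higher at an unadjusted p under 0.05, beside 8.69% of all genes, among them Plin1, the coat protein of lipid droplets, with 0.20 and no overlap. Leaving out 1 array gave 1 to 6 of these, so single arrays decided the count. It was 1 without wt replicate 2 or injected wt replicate 1, 2 without wt replicate 3, injected wt replicate 3, Dysf-/- replicate 3 or injected Dysf-/- replicate 1, and 3 without Dysf-/- replicate 2 or injected Dysf-/- replicate 2. By genotype, 0 adipocyte markers were higher in Dysf-/- mice (9.1% of all genes) and 3 in wt mice (3.45%), and the difference between these counts was not tested. Of 14 endothelial markers 5 were higher in the pooled comparison, including Eng with 0.25, Vwf with 0.19 (0.10 in the mean of its rows) and Cdh5 with 0.17, and Flt1, a receptor of VEGF, was lower with -0.16. Within Dysf-/- mice 1 of them was higher (9.1% of all genes) and within wt mice 7 were (3.45%), a difference in counts that was not tested. With centred arrays 2 of the 14 were higher, and without the 3 arrays with the highest medians 3 were. The pooled counts here, and those that follow, stand beside 8.69% higher and 5.93% lower of all genes.

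Of 16 collagens 5 were higher at an unadjusted p under 0.05, including Col4a1 and Col4a2 of the basement membrane with 0.21 and 0.18, and Col12a1 was lower with -0.23. By genotype, 7 were higher in Dysf-/- mice (9.1% of all genes) and 0 in wt mice (3.45%), and the difference between these counts was not tested. Single arrays decided the pooled count. It was 2 without wt replicate 3, injected wt replicate 3, Dysf-/- replicate 2 or injected Dysf-/- replicate 2 or 3, 3 without Dysf-/- replicate 1 or 3, and 8 without injected Dysf-/- replicate 1. It was also 2 with centred arrays, without the genotype term, with the array median as covariate and without the 3 arrays with the highest medians.

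Of 21 chemokines and cytokines 6 were higher, with Cxcl13 at 0.44 and Cxcl9 at 0.34, and 11 were higher without wt replicate 2 or with array weights. Of 15 interferon response genes 4 were higher, and 2 were without wt replicate 1, without wt replicate 2, with centred arrays or without the 3 arrays with the highest medians. In the circadian list 13 of 16 genes had negative differences and 3 were lower, with Ciart, a clock repressor, at -0.70. Of these 16, 0 were lower in Dysf-/- mice (6.13% of all genes) and 3 in wt mice (3.04%), and the difference between these counts was not tested. Pooled, 1 was lower without wt replicate 2 or injected wt replicate 3, and 0 without the 3 arrays with the highest medians. Oxidative phosphorylation genes had 1 of 21 higher, and 17 proteasome subunits had 0 in either direction. Over all 45 lists, which hold 599 measured genes, 4 genes were called, beside 0.114% of all genes. These were Mki67, Top2a, Mustn1 and Myh11.

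**Figure D4:**
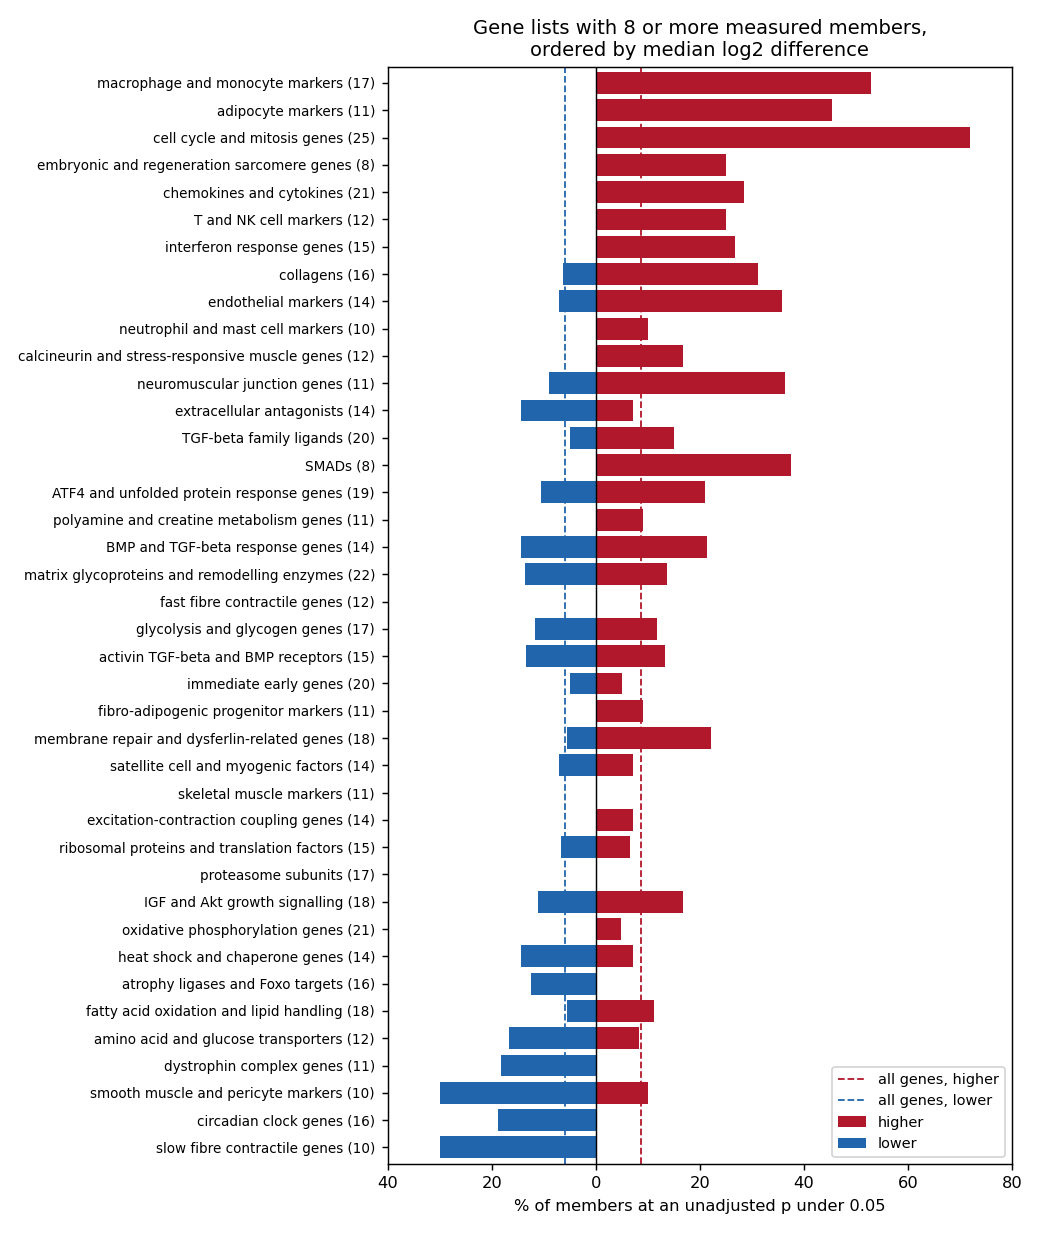
Share of measured members of each gene list at an unadjusted p under 0.05 in the pooled comparison, higher in ACVR2B/Fc-injected mice to the right and lower to the left, ordered by median log2 difference. The number of measured members is in brackets, and dashed lines mark the shares over all genes, 8.69% higher and 5.93% lower. The cell cycle list has 72% of its members higher and 0 lower.

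Whether injection acted differently in the 2 genotypes was tested in the fit of 4 group means. The difference between the effects passed for 0 genes, with 0.160 as the smallest adjusted p (limma), and 1238 genes (6.11%) had an unadjusted p under 0.05. Within Dysf-/- arrays alone 0 genes were called, with 15.2% at an unadjusted p under 0.05, and within wt arrays alone 0 were called, with 6.48%. The 23 pooled calls were chosen on the mean of both genotypes, and all 23 had the same sign and an unadjusted p under 0.05 in each. Mki67 differed by 0.60 ± 0.15 in Dysf-/- mice and by 0.95 ± 0.15 in wt mice, and H19 by 0.57 ± 0.12 and 0.51 ± 0.12.

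Txnip and Cacybp were among the 10 genes with the smallest p for the genotype difference, although neither passed. Txnip, an inhibitor of thioredoxin and of glucose uptake, was 11.16, 11.21 and 11.23 in injected Dysf-/- arrays, against 11.84, 11.47 and 11.73 in Dysf-/- arrays. In wt mice it was 11.33, 11.22 and 11.29 with injection, against 11.04, 11.13 and 10.99 without. The effects were -0.48 and 0.23, and the difference between them was -0.71 ± 0.12 (limma adjusted p = 0.354). Cacybp, a partner of calcyclin in protein ubiquitination, had effects of -0.20 in Dysf-/- mice and 0.29 in wt mice, with a difference of -0.50 ± 0.09 at the same adjusted p. In both genes the injected and other arrays of each genotype did not overlap and lay in opposite order. The other 8 were the receptor genes Olfr352, Olfr156 and Gpr151, each at a low level, and 5 genes with clone or predicted names.

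The 6 F66 arrays allowed a direct comparison of injected mice with mice that express Fst from the transgene, averaged over both genotypes. Injected arrays differed for 9186 genes (45.3%), 5698 higher (28.1%) and 3488 lower (17.2%) than F66. With each array centred on its median the split was 1949 higher and 5720 lower, and array medians lay between 5.27 and 5.33 in F66 mice, below those of injected mice. Of the 23 genes called for injection, 20 also differed between injected and F66 mice, a share to be read beside 45.3% of all genes. The same injected arrays served to call these genes, so the share is not independent of that choice. Of the 20, 9 were higher and 11 lower in injected mice. With centring 16 differed, 5 higher and 11 lower, all 16 in the same direction as before.

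Mki67 differed from mice without injection by 0.77 ± 0.11 with ACVR2B/Fc and by 1.65 ± 0.10 with F66, and the direct difference was -0.88 (limma adjusted p = 5.98e-06). These values average over both genotypes. The mean level of the cell cycle list lay between 5.86 and 5.94 in F66 arrays, against 5.81 to 5.94 in injected wt arrays, which overlapped. It lay between 6.50 and 6.59 in F66;Dysf-/- arrays, against 5.91 to 6.07 in injected Dysf-/- arrays. Pcbd1 had 0.35 with ACVR2B/Fc and 1.98 with F66, Mustn1 0.40 and 1.43, Stom 0.43 and 1.24, and Htra4 -0.68 and -2.01, each with a direct difference past the threshold. In contrast, Vsig4 had 1.01 with ACVR2B/Fc and 0.59 with F66, Scube2 0.36 and 0.07, Msi2 0.40 and 0.10, and Olfr663 0.77 and -0.10, and these 4 were higher in injected than in F66 mice. The direct difference did not pass for Ak4 (-0.04), Stmn2 (0.03) and Dok5 (0.05). Macrophage markers averaged 8.87 to 9.005 in F66;Dysf-/- arrays and 7.14 to 7.37 in F66 arrays, above injected arrays of the same genotype, and their part in these differences was not tested. Both effects use the same 6 arrays without injection, so only the direct difference compares injected with F66 mice. It uses again the injected arrays on which the called genes were chosen. For those genes it is therefore not an independent test, and it can lean toward the direction of the call.

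**Figure D5:**
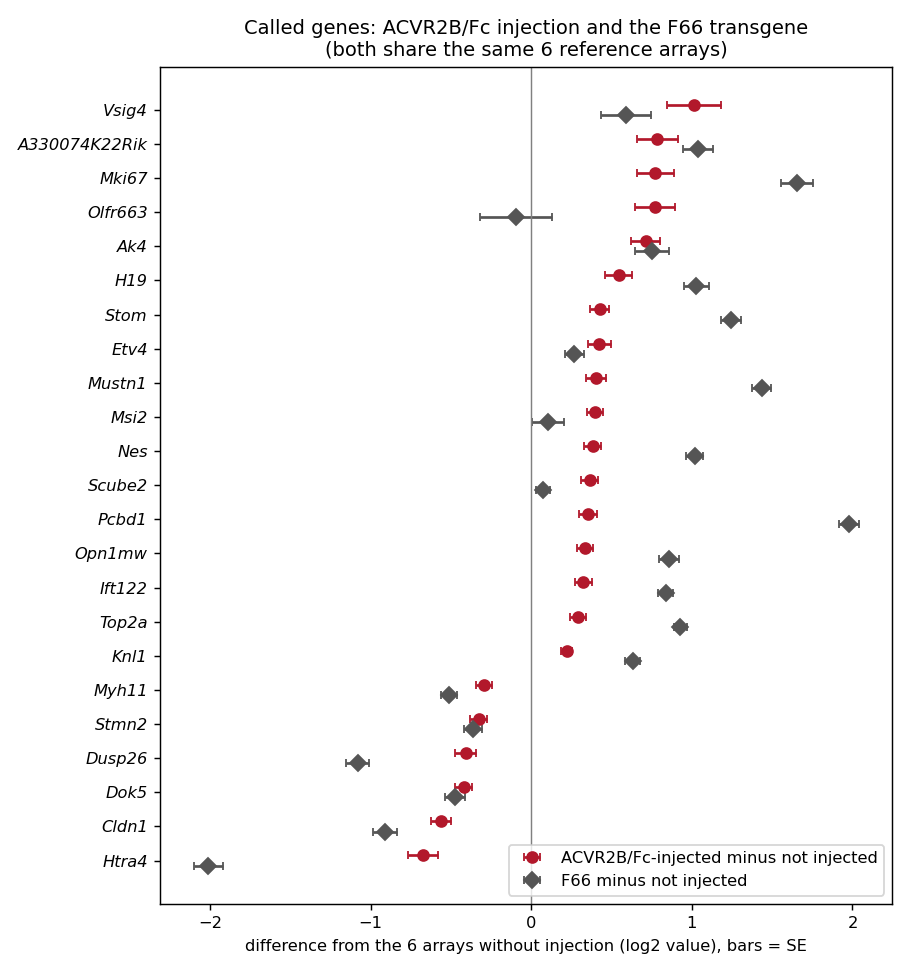
Log2 differences from the 6 arrays without injection for the 23 called genes, with standard errors: ACVR2B/Fc-injected mice (circles) and F66 mice (diamonds), each averaged over both genotypes. The genes were called on the ACVR2B/Fc values. Pcbd1, at 1.98, and Htra4, at -2.01, lie farthest out with F66.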

How the data were processed

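Quadriceps RNA was measured on Mouse Exon 1.0 ST arrays (Affymetrix), 3 per group. The authors deposited log2 values for 115830 rows in each of 18 arrays, obtained by RMA in Partek on build mm9 according to the submitters' processing notes, with versions not given in the sources used here. RMA corrects background, quantile normalizes and summarizes probes, so a change shared by most genes is partly removed and dim genes are compressed. No detection calls were used. Symbols came from the platform annotation held by GEO: 25539 rows had 1 symbol, 2300 had several and 87991 were not listed. Each of 20259 genes was represented by its brightest single-symbol row, by the mean of the 18 arrays.

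Differences were fitted with lmFit and eBayes of limma 3.58.1 in R 4.3.3, with injection and genotype as terms in 12 arrays (9 residual degrees of freedom). The genotype difference used 4 group means, and ACVR2B/Fc against F66 used 6 group means over 18 arrays. Adjustment was by Benjamini-Hochberg over all genes. Precision is limited by the number of arrays. The scripts were tested on simulated data. Figures were drawn with matplotlib 3.10.9.

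Genes eligible to be named were the 15 called genes with the largest increases and the 15 with the largest decreases, filled up by smallest p where fewer were called, the 10 with the smallest p of the genotype difference, up to 4 members of each of 45 gene lists by smallest p, Dysf, Mstn, Gdf11, Inha, Inhba, Fst, Acvr2a, Acvr2b and Smad9. Genes with clone or predicted names were counted only, and members were named in the lists described in the text. Top2a and Knl1, called beyond the first 15 increases, and Kif11, Aurka, C1qa, C1qc, Cdh5, Eng, Flt1 and Tnnt2 where the rule did not take them, and A330074K22Rik, were named after their values were seen. Members, lists and rule were chosen with earlier results of these data known. Promoter and miRNA sequences are from RefSeq on GRCm38.p6, a build other than that of the arrays. Alternatives were other fits, normalizations, filters and row choices, leaving out each array, and Student's t-test.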

Additional observations from a re-analysis of the deposited data

How the results depend on the processing

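The pooled comparison gave 23 calls, and 20 with the mean of a gene's rows, 23 without dim genes and 25 with trend and robust eBayes. It gave 85 calls with 6 group means over 18 arrays (45 higher, 40 lower), 39 with array weights, 14 after quantile normalizing again, 12 with the effects of 4 group means averaged, 6 with the replicate number as a block, 4 with centred arrays and 2 without the genotype term. It gave 0 over all rows of the table (smallest adjusted p 0.208), 0 within Dysf-/- arrays alone, 0 within wt arrays alone and 0 by Student's t-test after adjustment, while the methods' threshold of p under 0.01 and more than 2-fold gave 1. With the array median as a covariate there was 1 call, and without the 3 arrays with the highest medians 0 (2949 genes at an unadjusted p under 0.05), both alternatives chosen after seeing the data. Leaving out single arrays gave 0 to 46. In all of the linear fits over genes run, each of the 23 genes that was tested kept its direction and an unadjusted p under 0.05. The cause of these shifts in count was not tested. Same-numbered arrays of different groups had correlations of their deviations between -0.08 and 0.29, and 7 of 18 pairs were over 0.1. The main fit did not treat the numbers as pairs, and whether same-numbered arrays shared a processing step was not tested. With the number as a block, 17.3% of genes had an unadjusted p under 0.05, against 14.6% in the main fit, while calls fell to 6. The genotype difference gave 0 calls, 1 with 6 group means over 18 arrays, 0 to 1 without single arrays, and 0 under the other alternatives. ACVR2B/Fc against F66 gave 7869 to 9173 calls without single arrays and 7481 to 9582 under the others, from 9186. Genes near 0 changed sign: Mstn was 0.0238 after quantile normalizing again, 0.0898 with the array median as covariate and -0.0591 to 0.0721 without single arrays. Inhba was 0.0166 without the 3 arrays with the highest medians and -0.17 to 0.0649 without single arrays, and Acvr2b was -0.0101 to 0.0577. With the array median as covariate Acvr2a was -0.035, Smad9 0.090, Aurkb 0.14, C1qa 0.19, C1qc 0.19, Id2 0.14 and Bmpr1a -0.12, and Smad9 was 0.28 with the mean of its rows. The number of arrays and the brightness of a row over background limit what could be detected, and a p that misses the threshold does not show that a gene was unaffected.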
